A study of Homo sapiens with 18 samples.

Results

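Non-homologous end joining (NHEJ) rejoins the ends of DNA double-strand breaks, and 10 genes that encode its core factors were followed by RNA sequencing in lung cells before and after X-rays. The genes were XRCC5, XRCC6, PRKDC, LIG4, XRCC4, NHEJ1, PAXX, DCLRE1C, POLM and POLL. They were taken by symbol, not by their values, each symbol was mapped to 1 Entrez gene identifier, and all 10 were found among the 18475 genes of the deposited table. All 10 also passed the filter on low values in every cell line.

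In this pathway the Ku70-Ku80 ring, made by XRCC6 and XRCC5, slides onto a broken end and recruits the kinase DNA-PKcs, made by PRKDC. The ends are then held together and sealed by DNA ligase IV (LIG4) with its scaffolds XRCC4, XLF (NHEJ1) and PAXX, after the nuclease Artemis (DCLRE1C) and the polymerases mu (POLM) and lambda (POLL) have trimmed or filled ends that cannot be joined directly. NHEJ works throughout the cell cycle and is the main route by which human cells repair breaks made by ionizing radiation. Much of its control lies in the recruitment and phosphorylation of proteins that are already present, which transcript levels do not show.

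Bulk polyadenylated RNA was sequenced from BEAS-2B, H446 and A549, which are wild type by their labels and are described there as a lung epithelial line, a small cell lung cancer line and a lung adenocarcinoma line. Each line gave 3 control libraries and 3 libraries of cells collected 24 h after 10 Gy of X-rays, 18 libraries in all. The titles name them before and after, and the labels give no collection time for the controls. Irradiation and time in culture therefore cannot be told apart. Each cell type was thus represented by 1 established line, and BEAS-2B was immortalized with viral genes that include the SV40 large T antigen, so it is a model of normal epithelium with limits. No source used here states whether replicates were separate cultures, so the p-values measure the spread between these libraries, which may be technical.

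The deposited values were taken to be FPKM, that is, fragments per kilobase of transcript scaled to the mapped total of the library, a level per transcript length that can be set side by side between genes. Column totals ran from 461255 to 529936 FPKM, and relative depth, read from the smallest steps of 21 to 46 low genes per library, lay between 0.945 and 1.05 of the median library. In each line 5 of 6 epithelial markers averaged at least 1 FPKM, whereas in H446 none of the 4 neuroendocrine markers measured did. The neuroendocrine markers at that level numbered 1 in BEAS-2B and 2 in the A549 controls. Basal airway markers at that level numbered 1 of 4 in BEAS-2B (KRT17), 2 of 4 in H446 (KRT14 and KRT17) and 0 in A549, and alveolar or adenocarcinoma markers 2 of 6 in A549 (ALDH1A1 and AKR1B10) and 0 in BEAS-2B and H446. Of 8 leukocyte, endothelial and fibroblast markers 4, 5 and 3 reached it in BEAS-2B, H446 and A549. Their sum per library was 29.9 to 36.9 FPKM in the BEAS-2B controls and 34 to 42.3 FPKM after 10 Gy, 19.6 to 22.9 and 22 to 23.5 FPKM in H446, and 49.5 to 53.5 and 82.8 to 89.7 FPKM in A549. As a check of irradiation, the median of 15 p53 target genes rose above the control mean by 1.16 to 1.31 on the log2 scale in the A549 libraries and by 0.85 and 1.06 in BEAS-2B 10 Gy replicates 1 and 3, while BEAS-2B 10 Gy replicate 2 stood apart at 0.065. In H446 the same median stayed between -0.051 and 0.031. Replication genes and mitotic genes moved too: after 10 Gy in H446, all 12 S phase genes fell and all 12 G2/M genes rose, and in A549 9 S phase genes fell, 1 rose and 6 G2/M genes rose. In H446 the values also carried a trend with the GC content of transcripts that separated the groups. Spearman's rho between a gene's deviation from its mean in the line and its GC content was 0.348 to 0.459 in the controls and -0.497 to -0.106 after 10 Gy. It ran from -0.629 to 0.705 in BEAS-2B, differing as much within as between the groups, and from -0.134 to 0.166 in A549. The calls of the 10 genes in H446 after 10 Gy are therefore given with and without that trend.

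The 3 genes of the DNA-PK complex dominated the pathway's transcripts. XRCC5, XRCC6 and PRKDC together made up 84.1% to 88.2% of the summed FPKM of the 10 genes in every library. Over the 18 libraries XRCC5 ranged from 196 to 314 FPKM, XRCC6 from 122 to 273 FPKM and PRKDC from 31.8 to 67.2 FPKM. XRCC5 and XRCC6 stood at or above the 97.2th percentile of all genes in each library. PAXX followed at 12.3 to 34.4 FPKM and XRCC4 at 11.8 to 18.7 FPKM. The remaining 5 genes, LIG4, NHEJ1, DCLRE1C, POLM and POLL, lay between 3.21 FPKM, for POLM, and 12.8 FPKM, for POLL. In the controls of every line the order began with XRCC5, XRCC6, PRKDC, PAXX and XRCC4, and the lower ranks changed from line to line. The catalytic ligase subunit LIG4 was the steadiest, with a highest value 1.505 times its lowest, and POLM the most variable, with a ratio of 3.25.

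**Figure D1:**
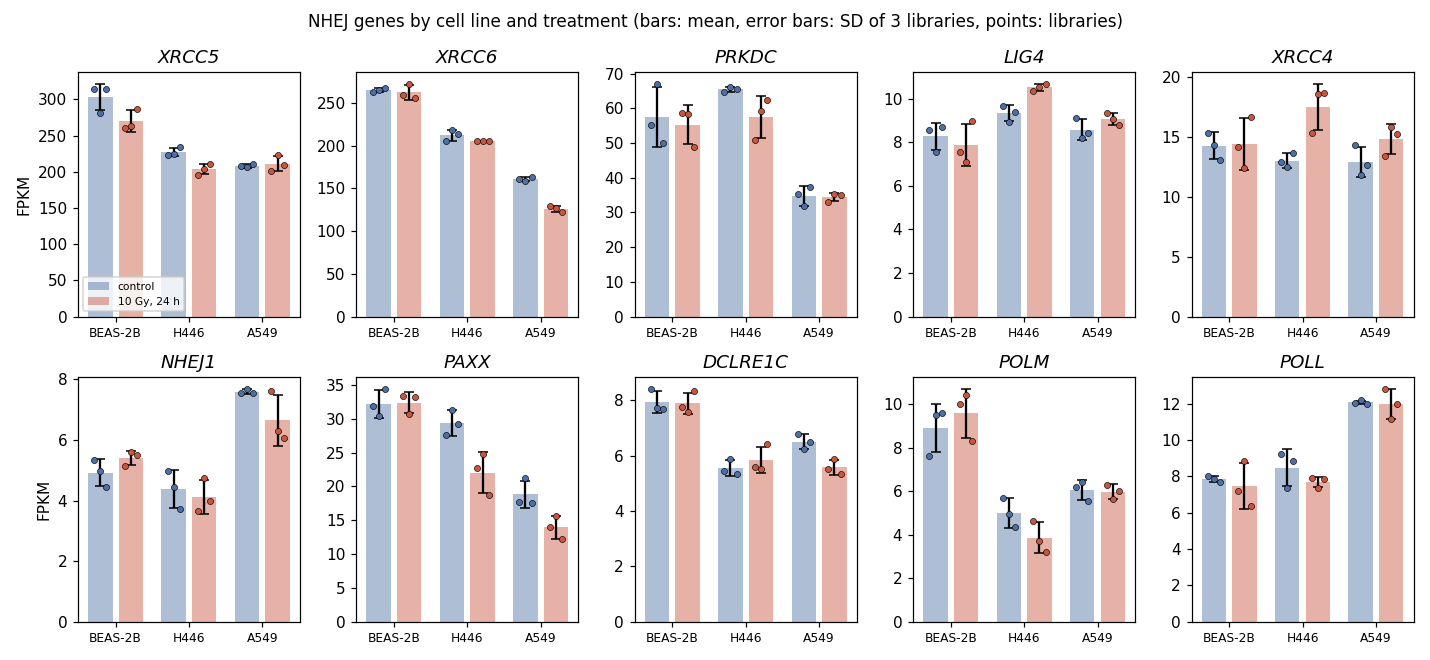
FPKM (y axis, linear, starting at 0) of the 10 NHEJ genes in BEAS-2B, H446 and A549, control in blue and 10 Gy in red, with bars for the mean, error bars for the SD of 3 libraries and points for single libraries. XRCC6 in A549 drops from a mean of 161 to 126 FPKM with no overlap, and PAXX is lower after 10 Gy in H446 and A549 but not in BEAS-2B.

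Before irradiation, BEAS-2B held the most Ku transcript and A549 the least. XRCC5 averaged 303 ± 18.6 FPKM in BEAS-2B, 227 ± 5.75 FPKM in H446 and 208 ± 2.57 FPKM in A549 (SD, n = 3 each). XRCC6 averaged 266 ± 2.34, 212 ± 6.64 and 161 ± 2.82 FPKM in the same order. All 3 steps were past the threshold for both genes, although the step in XRCC5 from H446 to A549 was small, a difference of 0.12 on the log2 scale (SE 0.05, adjusted p = 0.0397), and lost its call when any 1 of the 6 control libraries other than H446 replicate 1 was left out, with adjusted p of 0.056 to 0.129. PRKDC followed another order, with 65.5 ± 0.83 FPKM in H446 and 57.5 ± 8.73 FPKM in BEAS-2B, which did not differ past the threshold (adjusted p = 0.0668, but 0.0177 with equal totals and with the replicate block and 0.00377 without BEAS-2B control replicate 2), and 34.8 ± 2.86 FPKM in A549, lower than H446 by 0.89 on the log2 scale (SE 0.09, adjusted p = 5.24e-08).

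The ligase genes LIG4 and XRCC4 passed the test in none of the 3 comparisons of controls. LIG4 averaged 8.28 ± 0.61, 9.33 ± 0.36 and 8.59 ± 0.49 FPKM in BEAS-2B, H446 and A549, and XRCC4 averaged 14.2 ± 1.14, 12.99 ± 0.64 and 12.9 ± 1.27 FPKM. LIG4 in H446 against BEAS-2B came nearest, at 0.16 (adjusted p = 0.0512), and passed without BEAS-2B control replicate 3 (0.0391), without H446 control replicate 2 (0.047), with the GC trend removed (0.00741), with equal totals (0.00238) and with the replicate block (0.0276). Between H446 and A549, LIG4 passed with equal totals (0.0434) and with the GC trend removed (0.00401), and XRCC4 passed between A549 and BEAS-2B with the trend removed (0.0257). The 2 accessory scaffolds stood at opposite ends in A549. NHEJ1, which encodes the filament partner XLF, was highest there at 7.60 ± 0.081 FPKM, against 4.92 ± 0.44 in BEAS-2B and 4.38 ± 0.64 in H446, a difference of 0.54 and 0.68 on the log2 scale (adjusted p = 3.7e-05 and 2.22e-06). PAXX was lowest there at 18.8 ± 2.02 FPKM, against 32.2 ± 2.06 in BEAS-2B and 29.3 ± 1.91 in H446, and the last 2 did not differ past the threshold (adjusted p = 0.214).

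Among the end-processing genes, DCLRE1C and POLM were highest in BEAS-2B, at 7.93 ± 0.41 and 8.91 ± 1.11 FPKM. POLM averaged 4.99 ± 0.68 FPKM in H446, a difference of -0.73 from BEAS-2B on the log2 scale (SE 0.11, adjusted p = 7.49e-06), and its difference from A549 of -0.24 missed the threshold (adjusted p = 0.0508) but passed with the GC trend removed (-0.36, adjusted p = 0.00113), with the replicate block (0.0232), with at least 1 FPKM in every library (0.0462) and without H446 control replicate 1 (0.0186) or A549 control replicate 3 (0.0381). DCLRE1C was lowest in H446, at 5.55 ± 0.28 FPKM, with A549 between at 6.50 ± 0.29 FPKM, and of its 3 differences that between H446 and A549 lost its call when libraries were scaled to equal totals (-0.15, adjusted p = 0.0548). POLL instead was highest in A549, at 12.1 ± 0.091 FPKM, above BEAS-2B by 0.56 (adjusted p = 9.62e-06) and above H446, the difference of H446 minus A549 being -0.47 (adjusted p = 7.74e-05). DPCD lies over 4.48% of the exonic bases of POLL on the other strand. The ratio of POLM to POLL was 0.953, 1.21 and 1.25 in the BEAS-2B controls, so POLM exceeded POLL in 2 of these 3 libraries, and it averaged 0.593 in the H446 controls and 0.502 in the A549 controls. Of the 10 genes, 8 differed between the A549 and BEAS-2B controls, 4 between H446 and BEAS-2B and 7 between H446 and A549. Those counts stand beside 83.8%, 81.1% and 83.2% of all 13071 genes tested. The lines were grown and sequenced as separate samples, so a line and whatever else set its libraries apart cannot be told apart.

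In BEAS-2B, 10 Gy left no NHEJ gene past the threshold. The count was 0 of 10, and 0 of 10 had an unadjusted p under 0.05. The background was 0% of 11734 genes higher and 0% lower, although 1446 genes had an unadjusted p under 0.05. This fit also called 0 of the 15 p53 target genes, although all 15 were positive, with a median of 0.71 on the log2 scale. A count of 0 here therefore does not show that the members did not respond. No member had its groups apart, against 7.48% of all genes with every irradiated library above every control and 8.87% with every one below. The largest value was that of XRCC5, which measured 314, 282 and 314 FPKM in the controls and 260.4, 263 and 287 FPKM after 10 Gy, a change of -0.17 on the log2 scale (SE 0.08, 95% interval -0.35 to 0.01, adjusted p = 0.427), and its groups overlapped. XRCC6 read 263, 266 and 268 FPKM before and 259, 273 and 256 FPKM after. PAXX read 31.9, 30.3 and 34.4 FPKM before and 33.3, 30.6 and 33.2 FPKM after. In these genes 1 group lay within the span of the other. The 95% intervals of the 10 changes together reached from -0.35, for XRCC5, to 0.34, for POLM.

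The count was also 0 when BEAS-2B 10 Gy replicate 2 was left out. Without that library 1.99% of all genes were called and still no member, with XRCC5 at -0.15 (adjusted p = 0.613). With the replicate number as a block 3.74% of all genes were called, and with the spread shared over all 18 libraries 6.44%, again with no member. Of the 15 p53 target genes 14, 12 and 10 were called in these fits, in the same order. At shares of all genes this low, a count of 0 of 10 does not set the members apart from other genes.

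In H446 cells 6 of the 10 genes passed the test, in both directions. The ligase pair rose: XRCC4 measured 12.9, 12.4 and 13.7 FPKM in the controls and 15.3, 18.6 and 18.7 FPKM after 10 Gy, and LIG4 measured 9.65, 8.94 and 9.41 FPKM before and 10.3, 10.5 and 10.7 FPKM after. In both genes every irradiated library stood above every control. The change was 0.40 on the log2 scale for XRCC4 (SE 0.07, adjusted p = 0.00206) and 0.16 for LIG4 (SE 0.05, adjusted p = 0.0307). These were 2 of 10 members, beside 14.8% of 11479 genes called higher and 20.4% with every irradiated library above every control.

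The 4 genes that fell were XRCC5 and PRKDC of the DNA-PK complex, the scaffold PAXX and the polymerase POLM. XRCC5, the larger Ku subunit, measured 223, 225 and 234 FPKM before and 196, 204 and 210.2 FPKM after, a change of -0.16 (SE 0.04, adjusted p = 0.00879) with no overlap. PRKDC measured 64.7, 66.3 and 65.5 FPKM before and 50.9, 59.3 and 62.45 FPKM after, a change of -0.19 (SE 0.06, adjusted p = 0.0356), also with no overlap and lowest in the first irradiated library, without which the change was -0.10. Reads of the neighbouring and oppositely oriented gene MCM4, which starts 2 bp away in the GENCODE annotation, fell further, by 0.90 on the log2 scale (adjusted p = 7.35e-08).

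PAXX measured 27.5, 31.3 and 29.2 FPKM in the H446 controls and 22.7, 24.8 and 18.7 FPKM after 10 Gy, a change of -0.40 (SE 0.09, adjusted p = 0.00442). Again no irradiated library reached a control. POLM, the polymerase that can extend ends with little pairing, measured 5.70, 4.93 and 4.34 FPKM before and 4.62, 3.73 and 3.21 FPKM after, and these groups overlapped (change -0.31, SE 0.11, adjusted p = 0.049). The 4 lower genes, 3 of them with groups apart, stand beside 23.6% of all genes called lower and 29.9% with every irradiated library below every control. XRCC6 measured 205, 218 and 214 FPKM against 206, 206 and 205 FPKM (change -0.05, 95% interval -0.12 to 0.03, adjusted p = 0.329), and NHEJ1, DCLRE1C and POLL also missed the threshold, POLL passing only without control replicate 2 (-0.21, adjusted p = 0.0377).

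Removing the GC trend left 3 of these 6 calls in H446. XRCC4 then changed by 0.28 (adjusted p = 0.00559), XRCC5 by -0.22 (adjusted p = 0.000853) and PRKDC by -0.24 (adjusted p = 0.0108). The 1 higher and 2 lower calls stand beside 11% and 21.4% of 11378 genes tested with the trend removed. PAXX, whose longest transcript has 65.4% GC, moved to -0.22 (adjusted p = 0.0652) and POLM, with 61.5% GC, to -0.17 (adjusted p = 0.204). LIG4, at the other end with 36.2% GC, moved to 0.04 (adjusted p = 0.578). The calls of PRKDC, LIG4 and POLM were also lost in other settings. PRKDC lost its call with no filter (0.101) and after quantile normalization (0.0507), and POLM with a pseudocount of 0.1 (0.0502), with no filter (0.138) and after quantile normalization (0.0934). With libraries left out, PRKDC lost it without any 1 of the 3 control libraries (adjusted p 0.0712 to 0.0953), LIG4 without control replicate 2 or 3 or 10 Gy replicate 2 or 3 (0.0685 to 0.121), and POLM without control replicate 1 or 2 or 10 Gy replicate 2 or 3 (0.0995 to 0.175). All 3 were lost when the spread was shared over 18 libraries (0.0517 to 0.161). XRCC4 and XRCC5 kept their calls in every alternative run, with XRCC4 between 0.28 and 0.49 and XRCC5 between -0.22 and -0.13.

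**Figure D2:**
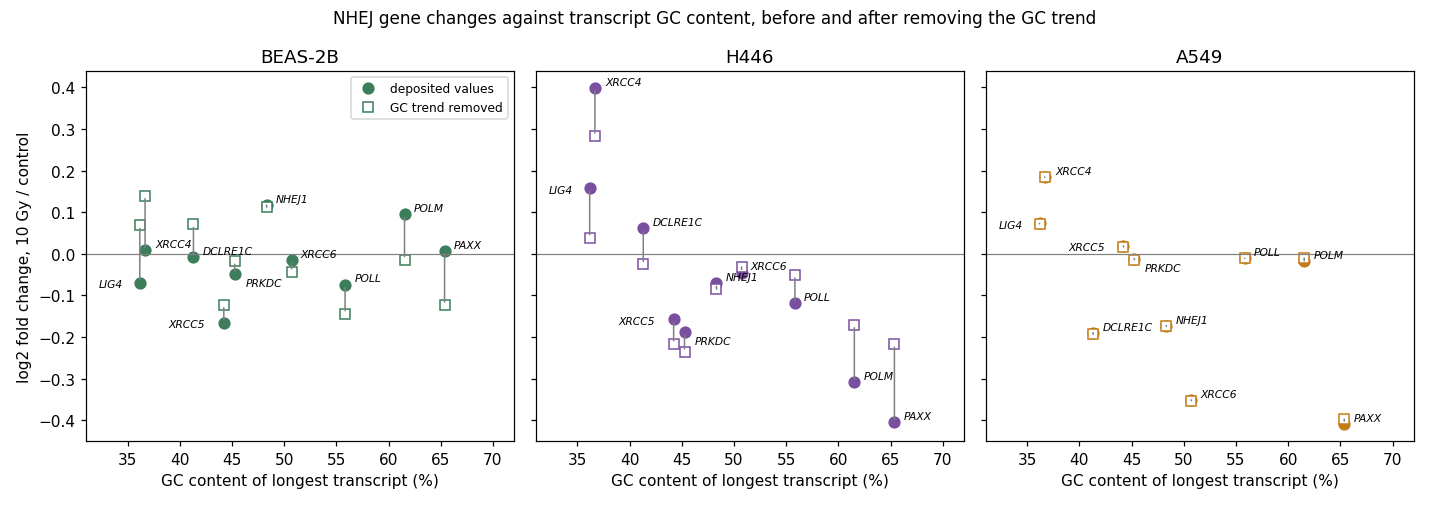
Log2 fold change of each NHEJ gene (y axis, 10 Gy over control) against the GC content of its longest transcript in percent (x axis), with filled circles for the deposited values and open squares after the GC trend was removed from each library. In H446 XRCC4 moves from 0.40 to 0.28 and PAXX from -0.40 to -0.22, whereas in A549 PAXX moves only from -0.41 to -0.40.

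In A549 cells 3 NHEJ genes passed the test, and all 3 fell: XRCC6, PAXX and DCLRE1C. XRCC6 measured 161, 158 and 164 FPKM in the controls and 129, 127 and 122 FPKM after 10 Gy, 2 tight groups far apart. Its change was -0.35 on the log2 scale (SE 0.04, 95% interval -0.43 to -0.27, adjusted p = 8.3e-06), and it kept its call in every alternative run, between -0.37 and -0.33. Its partner XRCC5 measured 208, 206 and 211 FPKM before and 202, 223 and 209.6 FPKM after, with the controls inside the span of the irradiated libraries (change 0.02, 95% interval -0.07 to 0.11, adjusted p = 0.719). XRCC6 has 5 processed pseudogenes in the annotation, so how its reads were shared with them is uncertain.

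PAXX, the scaffold that binds Ku at the break, measured 17.8, 21.2 and 17.6 FPKM in the A549 controls and 13.9, 15.6 and 12.3 FPKM after 10 Gy, with no overlap. The change was -0.41 (SE 0.08, adjusted p = 0.00152) and lay between -0.49 and -0.33 in all alternatives, with its call kept. DCLRE1C, which encodes the hairpin-opening nuclease Artemis, measured 6.79, 6.22 and 6.50 FPKM before and 5.51, 5.88 and 5.35 FPKM after, again with no overlap, a change of -0.19 (SE 0.06, adjusted p = 0.0227). Its call was lost without control replicate 1 or 3 or without 10 Gy replicate 1 or 3 (adjusted p 0.0531 to 0.0899), it has 1 annotated pseudogene, and 2.51% of its exonic bases lie under SUV39H2 on the other strand, which unstranded reads cannot assign. The 3 lower genes, all with groups apart, stand beside 26.4% of 11993 genes called lower and 29.5% with every irradiated library below every control. The summed non-epithelial markers were higher after 10 Gy in A549, as given above. The smooth muscle actin gene ACTA2 was at 13.9 to 14.7 FPKM in the controls and 44.0 to 47.3 FPKM after. CD68, listed for leukocytes, was at 26.45 to 29.62 FPKM in the controls and 29.67 to 33.47 FPKM after. The fibroblast gene DCN was at 0.14 to 0.25 and 0.34 to 0.45 FPKM, and COL1A1 and PDGFRB overlapped. PTPRC, PECAM1 and VWF, which also mark leukocytes and endothelium, stayed between 0 and 0.02 FPKM. The part of these marker differences in the changes of the NHEJ genes was not tested.

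No member was called higher in A549, where 25.3% of all genes were and 29% had every irradiated library above every control. XRCC4 came nearest, at 14.3, 11.8 and 12.7 FPKM before and 13.4, 15.8 and 15.2 FPKM after, with overlapping groups (change 0.18, SE 0.07, adjusted p = 0.0533). It passed after quantile normalization (adjusted p = 0.034), after removal of the GC trend (0.0338) and without control replicate 1 (0.015) or 10 Gy replicate 1 (0.0147). NHEJ1 measured 7.55, 7.69 and 7.55 FPKM before and 7.62, 6.30 and 6.05 FPKM after (change -0.17, adjusted p = 0.0718), with 1 irradiated library among the controls and the other 2 below, and passed only without that library, 10 Gy replicate 1 (adjusted p = 0.00609). An annotated readthrough transcript covers 65.4% of the NHEJ1 exonic bases on the same strand, so its reads may be shared. PRKDC, LIG4, POLM and POLL had changes between -0.02 and 0.07 and missed the threshold.

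**Figure D3:**
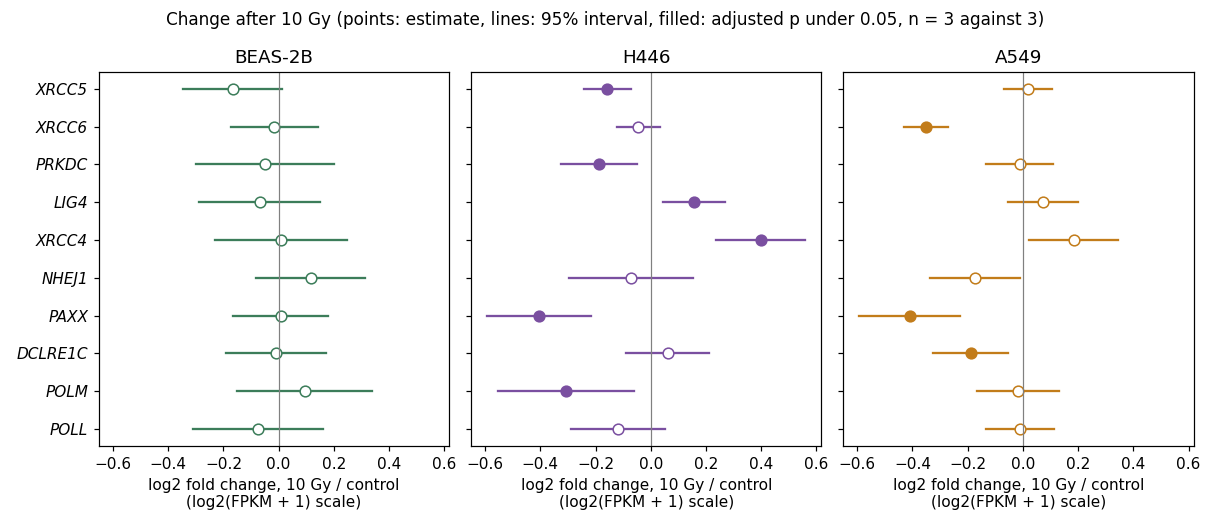
Log2 fold change after 10 Gy on the log2(FPKM + 1) scale (x axis) for the 10 NHEJ genes (y axis) in BEAS-2B, H446 and A549, with lines for the 95% interval and filled points where the adjusted p was under 0.05. BEAS-2B has 0 filled points, H446 has 6 and A549 has 3, with XRCC4 in H446 at 0.40 and XRCC6 in A549 at -0.35.

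As a list, the 10 genes had a median log2 change of -0.01 for BEAS-2B, -0.09 for H446 and -0.01 for A549. Over all genes tested the medians were 0.00, -0.03 and -0.00. Those of the 10 genes with a positive value numbered 4, 3 and 3 in the same order, beside 50.4%, 42.9% and 49.3% of all genes. Fewer cells that carry a transcript and less of it per cell cannot be told apart in bulk RNA, and in H446 the members moved while S phase genes fell and G2/M genes rose, whose part in the members' changes was not tested.

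The 3 genes that fell in A549 are shown by the 250 bases upstream of their start in RefSeq (GRCh38.p14), on the strand of the gene and 5′ to 3′, so that what these windows share can be read directly. Capitals mark matches on either strand to the CCAAT box (CCAAT), the GC box (GGGCGG), the E2F site (TTTGGCGC, TTTCGCGC, TTTCCCGC or TTTGCCGC) and the ETS site (CCGGAAGT), and no matches to different motifs overlapped in these windows.
XRCC6, chr22:41621045-41621294, plus strand: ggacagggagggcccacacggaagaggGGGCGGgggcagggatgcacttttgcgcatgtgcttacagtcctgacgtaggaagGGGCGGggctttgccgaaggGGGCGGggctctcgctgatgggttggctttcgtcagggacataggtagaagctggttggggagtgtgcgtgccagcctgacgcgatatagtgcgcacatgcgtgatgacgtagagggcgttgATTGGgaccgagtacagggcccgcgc
PAXX, chr9:136992172-136992421, plus strand: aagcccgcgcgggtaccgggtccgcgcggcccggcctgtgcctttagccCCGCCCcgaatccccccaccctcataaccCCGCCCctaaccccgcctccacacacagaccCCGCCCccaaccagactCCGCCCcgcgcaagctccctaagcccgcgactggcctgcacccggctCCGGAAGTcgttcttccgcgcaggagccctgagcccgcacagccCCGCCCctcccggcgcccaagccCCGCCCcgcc
DCLRE1C, chr10:14954433-14954682, minus strand: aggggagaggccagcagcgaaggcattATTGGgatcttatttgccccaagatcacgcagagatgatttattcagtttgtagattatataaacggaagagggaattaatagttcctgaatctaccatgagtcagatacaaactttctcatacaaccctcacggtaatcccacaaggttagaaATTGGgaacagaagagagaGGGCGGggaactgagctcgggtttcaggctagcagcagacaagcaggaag
Windows were given for 8 of the 10 genes, those other than XRCC5 and PRKDC. The GENCODE annotation, used below for distances to neighbours, starts XRCC6 at 41621119, inside its window. By that annotation much of the XRCC6 window is thus not upstream of the gene. The PAXX window held 6 GC boxes and 1 ETS site in 75.6% GC, the XRCC6 window 3 GC boxes and 1 CCAAT box in 63.6% GC, and the DCLRE1C window 1 GC box and 2 CCAAT boxes in 45.6% GC. A GC box was thus present in all 3, but also in the windows of XRCC4, NHEJ1 and POLM, which were not called lower in A549, that is in 6 of the 8 windows, and 42.6% of 35116 promoter windows of the same length hold one. The CCAAT box occurs in 32% of them, the ETS site in 3.42% and the E2F site in 2.79%, and none of the 8 windows held these E2F letters. A match is a description of the sequence and not evidence of binding.

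Several NHEJ genes share their upstream region with an oppositely oriented gene. Within 1000 bp, by position and not by value, the GENCODE annotation places DESI1 23 bp from XRCC6, MCM4 2 bp from PRKDC, ABHD13 11 bp from LIG4 and TMEM167A 365 bp from XRCC4. DESI1 measured 14.8, 15.8 and 15.7 FPKM in the A549 controls and 9.20, 10.1 and 10.8 FPKM after 10 Gy, so it was lower in every irradiated library, as XRCC6 was (change -0.58, SE 0.06, adjusted p = 1.05e-05). In H446 DESI1 changed by -0.20 (adjusted p = 0.00808) while XRCC6 missed the threshold. TMEM167A measured 41.9, 42.4 and 41.7 FPKM in the H446 controls and 48.6, 50.1 and 48.9 FPKM after 10 Gy, higher by 0.22 (adjusted p = 0.000805), in the line where XRCC4 rose by 0.40. In A549 TMEM167A was higher by 0.18 (adjusted p = 0.00352), where the XRCC4 value of 0.18 was not called. ABHD13 missed the threshold in all 3 lines, and none of the 4 neighbours passed in BEAS-2B. MCM4 was also lower in A549 (change -0.15, adjusted p = 0.0405), where PRKDC was at -0.01 and missed the threshold.

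The difference in response between lines was tested directly in 1 fit of all 18 libraries. Both comparisons use the same BEAS-2B libraries. The response of PAXX in BEAS-2B exceeded that in H446 by 0.41 (SE 0.14, adjusted p = 0.0364) and that in A549 by 0.42 (SE 0.14, adjusted p = 0.0266). The response of XRCC6 in BEAS-2B exceeded that in A549 by 0.34 (SE 0.06, adjusted p = 0.000272). These were 1 of 10 members for H446 and 2 of 10 for A549, beside 22.7% and 30.6% of 13071 genes. XRCC4 in BEAS-2B against H446 gave -0.39 (SE 0.14, adjusted p = 0.0521) and POLM gave 0.40 (SE 0.16, adjusted p = 0.0721), so neither difference was past the threshold. XRCC4 passed without BEAS-2B control replicate 3, BEAS-2B 10 Gy replicate 3 or H446 10 Gy replicate 1 (adjusted p 0.00788 to 0.0426), after quantile normalization (0.0344) and with at least 1 FPKM in every library (0.0408), and POLM with the replicate block (0.0369) and without BEAS-2B 10 Gy replicate 3, H446 control replicate 3 or H446 10 Gy replicate 1 (0.0215 to 0.0477). Against A549, XRCC5 gave -0.18 (adjusted p = 0.0719) and passed after quantile normalization (-0.26, adjusted p = 0.0086) and without BEAS-2B control replicate 2 (0.015) or BEAS-2B 10 Gy replicate 3 (0.0202), DCLRE1C gave 0.18 (adjusted p = 0.147) and passed with the GC trend removed (0.26, adjusted p = 0.0165), and NHEJ1 gave 0.29 (adjusted p = 0.114) and passed without A549 10 Gy replicate 1 (0.043). LIG4 in BEAS-2B gave -0.23 against H446 (adjusted p = 0.109) and -0.14 against A549 (0.311), and both passed without BEAS-2B 10 Gy replicate 3 (0.0112 and 0.0498), the first also without BEAS-2B control replicate 2 (0.0437).

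The XRCC6 difference kept its call in every alternative, at 0.31 (adjusted p = 0.000584) when BEAS-2B 10 Gy replicate 2 was left out. The PAXX differences were less stable. Without that library they were 0.45 for both lines (adjusted p = 0.0359 for H446 and 0.0225 for A549), but with the GC trend removed they were 0.13 (adjusted p = 0.608) and 0.29 (adjusted p = 0.147), and the H446 call was lost with no filter (0.0664) and after quantile normalization (0.0535). The H446 call was also lost without BEAS-2B control replicate 1 or 2, BEAS-2B 10 Gy replicate 1, H446 control replicate 2 or 3 or H446 10 Gy replicate 3 (adjusted p 0.0607 to 0.0884, and 0.109 for the last). The A549 call was lost without the same 3 BEAS-2B libraries, A549 control replicate 2 or A549 10 Gy replicate 3 (adjusted p 0.0521 to 0.0807).

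Because the proteins of NHEJ act in complexes, the ratio of partner transcripts was taken within each library for 6 pairs in 3 lines, 18 tests in all. With 3 libraries against 3 the exact permutation test (two-sided) cannot go below p = 0.1, so no ratio could pass, and the smallest adjusted value was 0.3. The ratio of XRCC6 to XRCC5 in A549 came to 0.774, 0.769 and 0.777 for the controls, as against 0.640, 0.571 and 0.583 once irradiated, groups that did not overlap (mean 0.773 ± 0.0042 against 0.598 ± 0.037, SD). In H446 the same ratio went the other way, from 0.936 ± 0.030 to 1.01 ± 0.037, also without overlap, and in BEAS-2B the groups overlapped. The ratio of PRKDC to XRCC5 overlapped in all 3 lines.

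Among the ligase scaffolds, the ratio of PAXX to XRCC4 was lower after 10 Gy in both cancer lines with no overlap, from 2.27 ± 0.22 to 1.27 ± 0.25 in H446 and from 1.48 ± 0.29 to 0.947 ± 0.12 in A549, and it was level in BEAS-2B at 2.28 ± 0.31 and 2.27 ± 0.25. XRCC4 to LIG4 in H446 went from 1.39 ± 0.061 to 1.66 ± 0.16 and NHEJ1 to XRCC4 from 0.339 ± 0.061 to 0.236 ± 0.021, both without overlap. POLM to POLL overlapped in all lines. Among single genes, groups apart were common, at 20.4% above and 29.9% below in H446 and 29% and 29.5% in A549. In BEAS-2B the shares were 7.48% and 8.87%. No such share was taken for ratios, so groups apart do not set these pairs off from other genes. No correction for GC content was made in the ratios, and PAXX and XRCC4 lie near the 2 ends of the members' GC range. With the GC trend removed, the log2 changes of PAXX and XRCC4 were -0.12 and 0.14 in BEAS-2B, neither past the threshold. They were -0.22 and 0.28 in H446 and -0.40 and 0.18 in A549. The level ratio in BEAS-2B thus holds for the uncorrected values only.

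**Figure D4:**
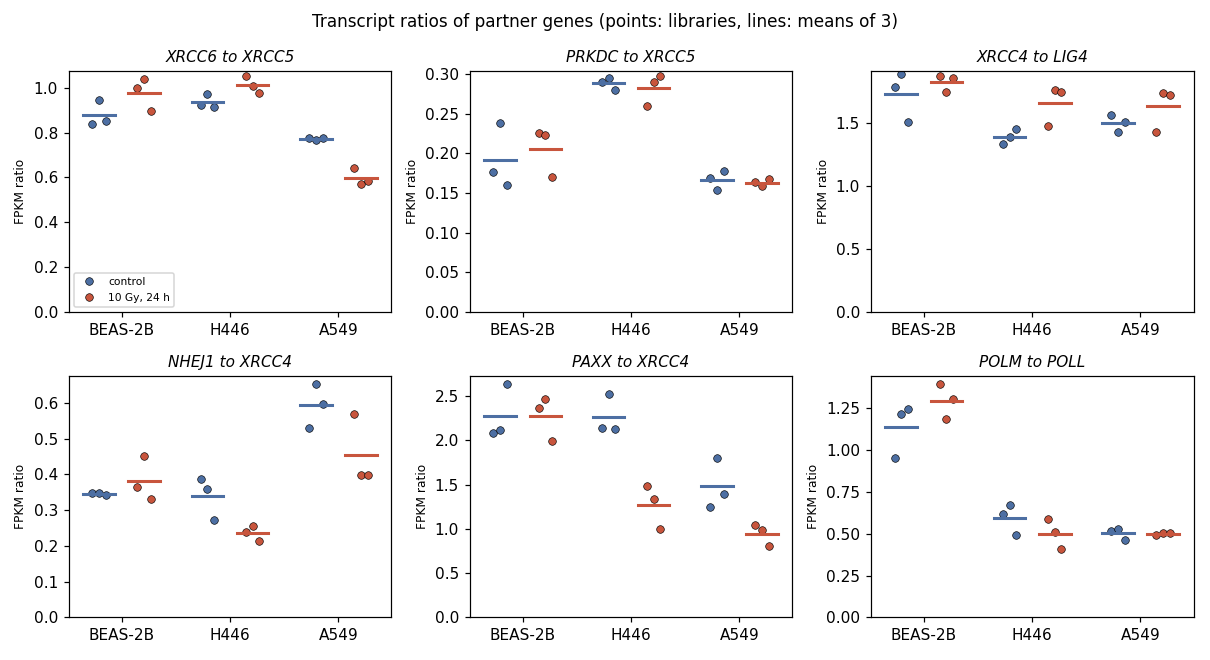
Ratio of FPKM between partner genes (y axis, linear, starting at 0) in each library of BEAS-2B, H446 and A549, control in blue and 10 Gy in red, with a line for the mean of 3. XRCC6 to XRCC5 in A549 lies between 0.769 and 0.777 in the controls and between 0.571 and 0.640 after 10 Gy.

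Around the core genes, 3 further lists of double-strand break repair genes gave calls in both cancer lines and none in BEAS-2B, where 0 of 12, 0 of 13 and 0 of 12 genes tested passed. In BEAS-2B the replicate block gave 1 call in the 53BP1 and shieldin list, and the fit over all 18 libraries gave 1 there and 4 of 12 in the alternative end joining and resection list, beside 0% of all genes called in BEAS-2B, 3.74% with the block and 6.44% in the fit over all 18 libraries. The counts below stand beside 14.8% of all genes called higher and 23.6% lower in H446, and 25.3% higher and 26.4% lower in A549. The neighbouring genes and list genes named carry no correction for GC content, but with the trend removed in H446 the counts higher and lower were 1 and 3, 1 and 3, and 2 and 8 for the 3 lists, beside 11% of 11378 genes higher and 21.4% lower in that setting. Of the accessory and end-processing genes of NHEJ, 1 rose and 4 fell of 12 tested in H446, and 1 rose and 5 fell of 13 tested in A549. In H446 the genes that fell included the NHEJ modulator CYREN (-0.23, adjusted p = 0.00739) and the single-strand break scaffold XRCC1 (-0.21, adjusted p = 0.00454). In A549 the largest changes were those of RNF138, a ubiquitin ligase that removes Ku from ends (-0.40, adjusted p = 9.96e-05), CYREN (-0.31, adjusted p = 0.000458) and TDP2, which clears topoisomerase adducts (-0.28, adjusted p = 0.000332).

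Of 13 tested genes that protect ends from resection through 53BP1 and shieldin, 1 rose and 4 fell in H446, and 3 rose and 4 fell in A549, where only 1 rose and 3 fell in the fit over all 18 libraries and, likewise, without A549 10 Gy replicate 2. In H446 the largest were PAXIP1 (-0.52, adjusted p = 0.000184), the shieldin-linked factor ASTE1 (-0.41, adjusted p = 0.00094) and the light chain DYNLL1 (0.35, adjusted p = 0.000118). In A549 TP53BP1, which encodes 53BP1 itself, rose by 0.27 (adjusted p = 0.00309) and SHLD1 by 0.26 (adjusted p = 0.0416), and the ubiquitin ligase RNF8 changed by -0.25 (adjusted p = 0.00616). SHLD3 was not analysed here.

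Alternative end joining and resection compete with NHEJ for the same ends, and of 12 tested genes of these routes 2 rose and 6 fell in H446, and 3 rose and 6 fell in A549. POLQ, the polymerase of microhomology-mediated joining, rose in both, by 0.62 in H446 (adjusted p = 3.15e-05) and by 0.31 in A549 (adjusted p = 0.003). In H446 LIG1 and FEN1, which also act in lagging-strand replication, changed by -0.61 and -0.60 (adjusted p = 9.09e-06 and 7.66e-07). In A549 the resection nuclease EXO1 changed by -0.86 (adjusted p = 1.83e-07) and RBBP8, which encodes CtIP, by -0.43 (adjusted p = 2.34e-05). The list median was -0.16 in H446, and -0.25 with the GC trend removed. In A549 it was -0.07, and -0.04 after quantile normalization as well as without A549 control replicate 1. The 10 core genes had -0.09 and -0.01.

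**Figure D5:**
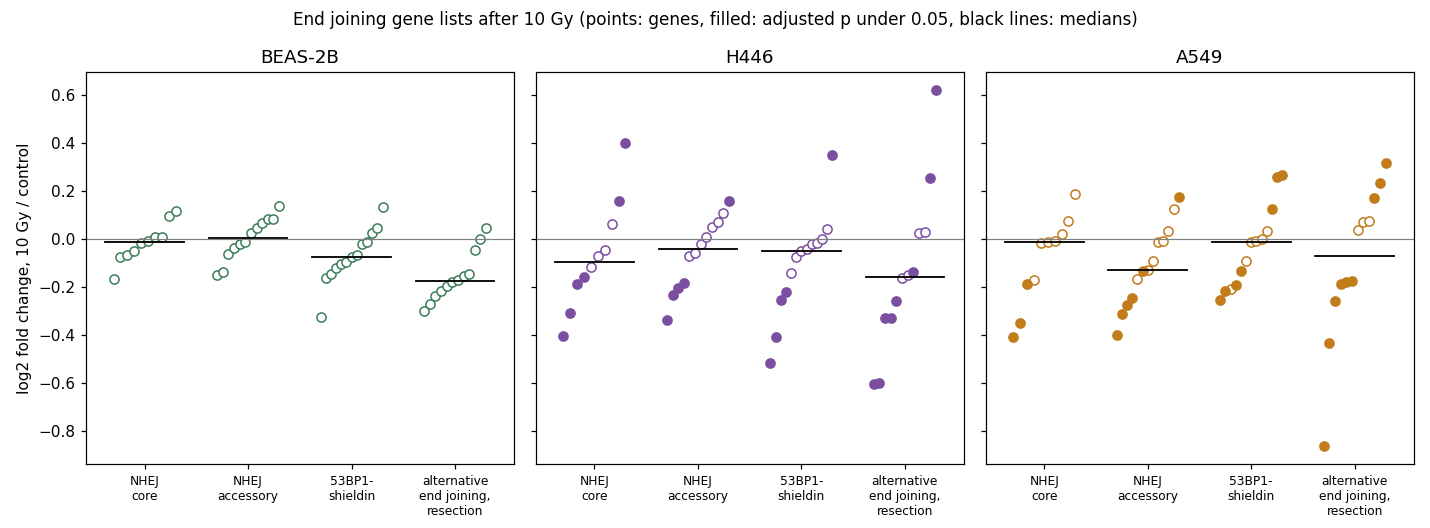
Log2 fold change after 10 Gy (y axis) of single genes in 4 lists of end joining genes (x axis) in BEAS-2B, H446 and A549, filled where the adjusted p was under 0.05, with black lines for list medians. BEAS-2B shows 0 filled points, and the core list spans -0.40 to 0.40 in H446 and -0.41 to 0.18 in A549.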

How the data were processed

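RNA of 18 libraries was measured, and the labels gave the line, the treatment and a replicate number of each. mRNA was purified with oligo(dT) beads and read from 1 end for 50 bases. The authors deposited a single table of values per gene and library, here taken to be FPKM, since no source used here names the unit and the values have 2 decimals and unequal totals. The submitters' processing notes name HISAT2 2.0.4, Bowtie2 2.2.5, RSEM 1.2.12 and hg38. Whether reads kept their strand was not given in the sources used here. Read counts were not given either, so depth is known only in relative terms.

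Genes with at least 1 FPKM in 3 of a line's 6 libraries were fitted as log2(FPKM + 1), which understates changes of low genes, with limma 3.58.1 in R 4.3.3 (lmFit, eBayes with trend), each line alone. Benjamini-Hochberg adjustment covered all genes fitted, and a call is an adjusted p under 0.05. Control levels and differences in response came from 1 fit of 6 group means over genes that passed in any line. The fits were tested on simulated data.

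The 10 genes and the further lists were chosen with earlier results of these data known. All 10 are named, and of each further list the 3 largest changes among those called per line, except 1 that is not reported here. Alternatives were a pseudocount of 0.1, no filter, at least 1 FPKM in every library, quantile normalization, equal totals, a loess correction for GC content (span 0.5, GC known for 96.6% of genes), the replicate number as a block, 1 fit for all lines, and each library left out in turn. Positions and overlaps come from GENCODE 29 on GRCh38. Replicates shared at most 3.22% of their values exactly, so none was taken as a repeat.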

Additional observations from a re-analysis of the deposited data

Results flagged for a closer look

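The response to 10 Gy differed between lines, by a test of the difference itself, for PAXX and XRCC6. For PAXX the log2 response of BEAS-2B minus that of H446 was 0.411 (adjusted p = 0.0364) and that of BEAS-2B minus A549 was 0.416 (adjusted p = 0.0266). For XRCC6 the response of BEAS-2B minus that of A549 was 0.335 (adjusted p = 0.000272). PAXX was lower in all 3 irradiated libraries of H446 and of A549 than in any of their controls, and XRCC6 was so in A549. The PAXX differences were 0.13 (adjusted p = 0.608) against H446 and 0.29 (adjusted p = 0.147) against A549 once the GC trend was removed, so neither was past the threshold there, and that against H446 also lost its call with no filter and after quantile normalization. Groups of 3 libraries are too small for a test of single outlying values.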

How the results depend on the processing

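Leaving out 1 library at a time gave 0 called members in BEAS-2B, 4 to 6 in H446, 2 to 4 in A549, 0 to 4 for the response of BEAS-2B minus H446 and 1 to 4 for that of BEAS-2B minus A549. In H446 the count was 3 with the GC trend removed and 3 with all 18 libraries in 1 fit. For the response of BEAS-2B minus H446 it was 0 with no filter and 0 with the GC trend removed, and 2 where each gene had to reach 1 FPKM in every library. The cause was not tested. Replicate numbers were taken as names, since same-numbered control and irradiated libraries deviated together in some pairs and not in others (r from -0.125 to 0.324 over 9 pairs). With the replicate number as a block the counts were 0, 6 and 3 in BEAS-2B, H446 and A549, 2 for the response of BEAS-2B minus H446, and 2 for that of BEAS-2B minus A549. In the controls the block gave 8 for A549 minus BEAS-2B, 6 for H446 minus BEAS-2B and 8 for H446 minus A549.

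The sign of small changes, none of them past the threshold, turned in several settings. Quantile normalization gave -0.00094 for PAXX in BEAS-2B, 0.0012 for NHEJ1 in H446, 0.0211 for both PRKDC and POLL in A549, -0.0172 for POLL in BEAS-2B minus H446, and -0.0246 for XRCC4 in H446 controls minus A549 controls. Equal totals gave 0.0052 for DCLRE1C in BEAS-2B. With the GC trend removed, BEAS-2B gave 0.068 for LIG4, -0.124 for PAXX, 0.071 for DCLRE1C and -0.014 for POLM, H446 gave -0.026 for DCLRE1C, BEAS-2B minus H446 gave 0.087 for XRCC5, -0.0072 for XRCC6, 0.011 for LIG4, 0.085 for DCLRE1C and -0.081 for POLL, and A549 controls minus BEAS-2B controls gave -0.014 for LIG4.

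Leaving out 1 library turned further small values, over these ranges. In BEAS-2B they were -0.043 to 0.0019 for XRCC6, -0.141 to 0.066 for PRKDC, -0.096 to 0.104 for XRCC4, -0.035 to 0.054 for PAXX, -0.044 to 0.029 for DCLRE1C, -0.0020 to 0.185 for POLM and -0.187 to 0.0197 for POLL. NHEJ1 in H446 ran from -0.164 to 0.0083. In A549 the ranges were -0.0192 to 0.052 for XRCC5, -0.074 to 0.041 for PRKDC, -0.070 to 0.0213 for POLM and -0.057 to 0.036 for POLL. In BEAS-2B minus H446 they were -0.061 to 0.0178 for XRCC5 and -0.068 to 0.139 for POLL, and in BEAS-2B minus A549 -0.129 to 0.078 for PRKDC and -0.176 to 0.031 for POLL. In the controls, LIG4 ran from -0.0079 to 0.080 for A549 minus BEAS-2B and XRCC4 from -0.047 to 0.082 for H446 minus A549.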
